A study of Mus musculus with 4 samples.

Results

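Glycogen is made and degraded by a small set of enzymes, and 9 genes of this set are described here in 4 mouse sarcomas. The genes were the phosphatase targeting subunits Ppp1r3a, Ppp1r3b, Ppp1r3c and Ppp1r3d, the synthesis genes Gyg, Gys1 and Gbe1, and the phosphorylase genes Pygm and Pygl. They were chosen by their function with the ATO against PBS values of this same table already known, so their differences between the groups are given as a description and carry no test. These are 9 of the 56691 genes in the deposited table, and all 9 were among the 17188 genes with enough counts to enter the comparison.

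RNA-seq was performed on sarcoma tissue of W/+ mice, which carry 1 mutant p53 allele (genotype p53R282W/+ in the labels, named after the human residue) beside the wild-type allele and serve as a model of Li-Fraumeni syndrome. ATO 1 and ATO 2 came from mice given arsenic trioxide (ATO), which the study added to the drinking water. Ctl 1 and Ctl 2 came from mice of the same genotype, for which the labels name PBS and the study writes untreated. The sarcomas arose spontaneously, and the labels give neither their type or site nor the age of the mice. The labels also do not state that the sarcomas of a group came from different mice, so p-values measure the spread between these samples only. The labels attach to all 4 samples a growth protocol that names dexamethasone, isobutylmethylxanthine, insulin and fed cells, while the study describes tumour tissue.

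Glycogen is the branched glucose store of animal cells. Glycogenin (Gyg) primes the particle, glycogen synthase (Gys1 in muscle and most tissues, Gys2 in liver) extends it and the branching enzyme (Gbe1) adds branches, while glycogen phosphorylase (Pygm in muscle, Pygl in liver, Pygb in brain) releases glucose 1-phosphate. Proteins of the Ppp1r3 family bind protein phosphatase 1 to glycogen, where it dephosphorylates synthase, which turns it on, and phosphorylase, which turns it off. Ppp1r3a is best known from striated muscle and Ppp1r3b from liver, while Ppp1r3c, also called PTG, and Ppp1r3d are found more widely, Ppp1r3c also in fat. Skeletal muscle and liver hold the main stores, and fat holds a smaller one.

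Total counts ranged from 15259695 to 18134000. ATO 2 stood apart from the other sarcomas, with 14.7% of its counts in mitochondrial genes against 1.98% to 2.59%, and with an FPKM of 1485.45 for Ucp1, the uncoupling protein of brown fat, against 0.03 to 0.1. ATO 1 stood apart through skeletal muscle genes, with a summed FPKM of 18343 over 12 markers against 10.8, 188 and 1324 in Ctl 1, Ctl 2 and ATO 2. The defining markers of mesenchymal tissue were present in all 4 sarcomas (summed FPKM of Col1a1, Col1a2, Vim and Pdgfrb 789 to 3902). The 9 genes are therefore given for each sarcoma, and their differences between the groups also without ATO 1 and without ATO 2. In whole tissue, more cells of a type and more RNA per cell cannot be told apart.

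The promoters of 8 of the 9 genes were found in the RefSeq sequences of GRCm38.p6, and the missing entry was Ppp1r3b. Shown are the 3 genes with the largest fitted differences between the groups, because their levels were the most extreme of the set. Each stretch ends at the base before the gene's start in the GENCODE M21 annotation and is written 5′ to 3′ on the strand of the gene. Ppp1r3c lies on chr19:36736654-36736854 (minus strand), Pygm on chr19:6384158-6384398 (plus strand) and Ppp1r3a on chr6:14755275-14755524 (minus strand). Capitals mark matches to the searched motifs on either strand, which are named after the lines.
Ppp1r3c: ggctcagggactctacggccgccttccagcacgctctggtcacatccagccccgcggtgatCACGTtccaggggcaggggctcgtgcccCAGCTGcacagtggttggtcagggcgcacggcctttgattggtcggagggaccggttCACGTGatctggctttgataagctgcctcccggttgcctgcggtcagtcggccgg
Pygm: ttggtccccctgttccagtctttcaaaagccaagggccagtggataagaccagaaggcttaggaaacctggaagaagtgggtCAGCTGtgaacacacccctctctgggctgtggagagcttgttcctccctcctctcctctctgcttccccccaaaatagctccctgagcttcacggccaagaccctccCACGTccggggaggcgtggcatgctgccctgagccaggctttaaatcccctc
Ppp1r3a: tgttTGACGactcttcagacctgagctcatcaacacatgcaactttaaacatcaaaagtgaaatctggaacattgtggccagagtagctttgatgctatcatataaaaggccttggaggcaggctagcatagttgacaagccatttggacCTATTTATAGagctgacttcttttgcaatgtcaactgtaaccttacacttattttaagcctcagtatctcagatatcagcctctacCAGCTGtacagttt

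The motifs were searched in the 250 bases before the RefSeq start of each gene. The window of Pygl lies wholly inside its GENCODE M21 gene, and that of Gyg has only 49 of its 250 bases outside its M21 gene. CAGCTG, an E-box bound by muscle regulators such as MyoD, was present in the windows of Ppp1r3c, Pygm, Ppp1r3a and Gys1, and in 13% of the windows of 32851 promoters. Ppp1r3c had it at -161 from the RefSeq start and Ppp1r3a at -14, while Pygm had it at -168 and again at -8, where the second match lies beyond the printed stretch. The core of the MEF2 site of muscle genes, which is CTA and TAG with any 4 bases between them, occurred once, in Ppp1r3a at -100, and in 3.2% of all windows. CACGTG, the E-box of USF, MYC and ChREBP, was found in Ppp1r3c at -104 and in Ppp1r3d (6.02% of all windows). ACGTG, the core of the hypoxia response element, had 3 matches in Ppp1r3c, of which those at -104 and -103 lie within CACGTG on the opposite strands, and it also occurred in Pygm, Ppp1r3d and Pygl (16.6%). TGACG, the core of the cAMP response element, occurred in Ppp1r3a, Ppp1r3d and Pygl (17.8%), and the full element TGACGTCA in none of the 8 genes (1.55%). Gbe1 and Gyg had none of these motifs. A match is a run of letters and no evidence of binding.

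Levels are given as deposited FPKM, the read count of a gene divided by its exonic length and by the library total, which allows levels of different genes to be compared. Where 4 values follow each other without names, they stand for Ctl 1, Ctl 2, ATO 1 and ATO 2. Among the targeting subunits, Ppp1r3c (chromosome 19, 36731731 to 36736653, minus strand, GRCm38) had FPKM values of 122.43 in ATO 1 and 46.56 in ATO 2, and of 0.74 in Ctl 1 and 1.8 in Ctl 2. Each ATO value thus exceeded each Ctl value by far, and the lower ATO value was 25.9 times the higher Ctl value. The counts behind these values were 35, 88, 6050 and 1936. In ATO 1 Ppp1r3c held place 253 by FPKM among all genes of the table, and in Ctl 1 place 14375. The fitted log2 fold change of ATO over Ctl, from TMM-normalized counts in edgeR, was 6.28 (SE 0.81), the 160th highest of 17188 genes. It was 5.61 without ATO 1 and 6.73 without ATO 2, so that neither ATO sarcoma alone carried it.

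Ppp1r3a (chromosome 6, 14713977 to 14755274, minus strand), the subunit of striated muscle, had FPKM values of 22.74 in ATO 1 and 1.23 in ATO 2, and of 0 in Ctl 1 and 0.14 in Ctl 2. Here too the groups did not overlap, but ATO 1 was 18.5 times ATO 2. Ctl 1 had 0 counts, which allows an FPKM of up to 0.0247 by counting error, and Ctl 2 had 18. The fitted log2 fold change was 7.51 (SE 2.23), with 4.50 without ATO 1 and 8.43 without ATO 2. It was 13.44 without Ctl 2, where the only remaining Ctl sarcoma is at 0 and the value depends on the prior count, and 5.15 and 2.77 in limma on log2 FPKM with pseudocounts of 0.1 and 1.

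Ppp1r3b (chromosome 8, 35375739 to 35388139, plus strand), the subunit best known from liver, showed the opposite order of the ATO sarcomas, with FPKM values of 1.18 in ATO 1 and 72.25 in ATO 2, and of 1.78 in Ctl 1 and 11 in Ctl 2. The lowest and the highest value of the 4 sarcomas were thus both in the ATO group, 61.2 times apart, and the groups overlapped. Its fitted log2 fold change of 2.95 (SE 1.99) was -2.29 without ATO 2 and 3.92 without ATO 1. Ppp1r3d (chromosome 2, 178411206 to 178414472, minus strand) had an FPKM of 2.31, 8.91, 1.59 and 8.57 in Ctl 1, Ctl 2, ATO 1 and ATO 2. The groups overlapped, and the fitted log2 fold change of 0.24 (SE 1.11) was -0.28 and -0.20 in limma on log2 FPKM with pseudocounts of 0.1 and 1. It was 1.03 without ATO 1, -1.68 without ATO 2 and -0.42 without Ctl 1.

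**Figure D1:**
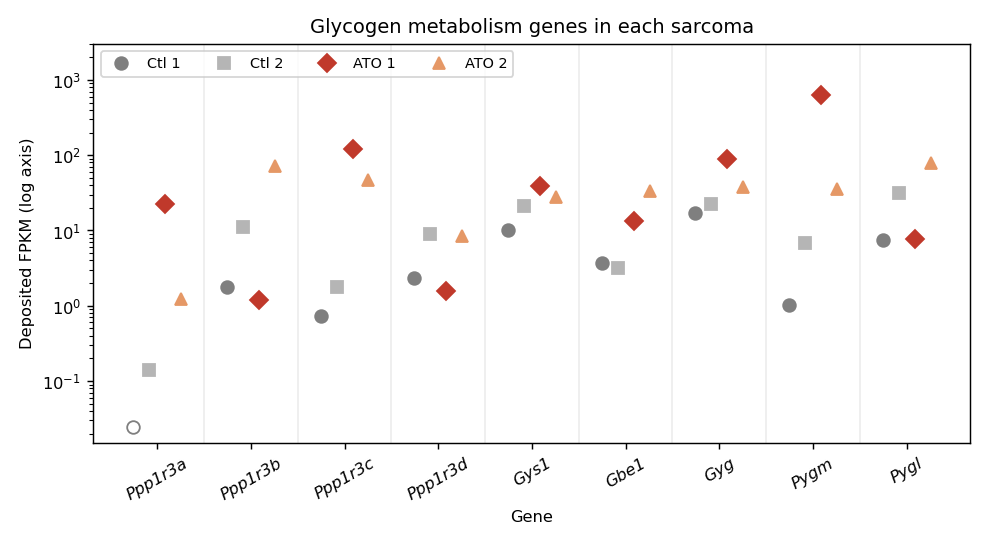
Deposited FPKM (log axis) of the 9 glycogen metabolism genes in each of the 4 sarcomas, 1 point per sarcoma (Ctl 1 and Ctl 2 from PBS mice, ATO 1 and ATO 2 from ATO mice). The open circle is the limit of 0.0247 that a count of 0 allows for Ppp1r3a in Ctl 1, and for Ppp1r3a, Ppp1r3c, Gys1, Gbe1, Gyg and Pygm both ATO points lie above both Ctl points.

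The make-up of the targeting subunits was described by the share of each gene in the summed FPKM of Ppp1r3a to Ppp1r3g. The sum was 151 in ATO 1 and 133 in ATO 2, and 7.69 in Ctl 1 and 27.2 in Ctl 2. The sums of the ATO sarcomas were thus close to each other and above both Ctl sarcomas, while the genes behind them differed. Ppp1r3c took 9.62% and 6.62% in Ctl 1 and Ctl 2, 80.9% in ATO 1 and 35% in ATO 2. Ppp1r3b took 23.1%, 40.4%, 0.779% and 54.3% in the same order. In ATO 1 the family was therefore mostly Ppp1r3c with 15% Ppp1r3a, and in ATO 2 mostly Ppp1r3b and Ppp1r3c. In the Ctl sarcomas Ppp1r3d (30% and 32.8%) and Ppp1r3e (29.1% and 18.3%) held much of the sum, and in ATO 1 they held 1.05% and 2.06%. The FPKM ratio of Ppp1r3c to Ppp1r3b was 104 in ATO 1 and 0.644 in ATO 2, and 0.416 in Ctl 1 and 0.164 in Ctl 2. Ppp1r3b was thus above Ppp1r3c in 3 of the 4 sarcomas, ATO 2 included.

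In each of the genes of synthesis the groups did not overlap, ATO being higher. Gyg (chromosome 3, 20122084 to 20155317, minus strand) had FPKM values of 89.42 in ATO 1 and 37.88 in ATO 2, and of 16.83 in Ctl 1 and 22.36 in Ctl 2. The fitted log2 fold change was 1.92 (SE 0.50), with 1.36 without ATO 1 and 2.33 without ATO 2. Gys1 (chromosome 7, 45434844 to 45456619, plus strand) had 10.29, 21.26, 38.48 and 28.15, the narrowest separation among the 6 of these 9 genes without overlap, with the lower ATO value at 1.32 times the higher Ctl value. Its fitted log2 fold change was 1.34 (SE 0.50), with 1.25 without ATO 1 and 1.43 without ATO 2. An exon of Gys1 shares 310 bases with Ruvbl2 on the opposite strand, and as the sources used here do not say whether counting used strand, reads of both genes cannot be told apart there. Ruvbl2 itself had 909, 1381, 441 and 587 counts, fewer in ATO than in Ctl.

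Gbe1 (chromosome 16, 70313949 to 70569716, plus strand), mutated in glycogen storage disease with abnormal, poorly branched glycogen, had FPKM values of 13.36 in ATO 1 and 33.66 in ATO 2, and of 3.69 in Ctl 1 and 3.22 in Ctl 2. The Ctl sarcomas were close to each other, the ATO sarcomas were both higher, and in contrast to Gyg and Gys1 the higher level was in ATO 2. The fitted log2 fold change was 3.11 (SE 0.68), which was 3.69 without ATO 1 and 2.08 without ATO 2. The FPKM ratio of Gbe1 to Gys1 was 0.359, 0.151, 0.347 and 1.2 in Ctl 1, Ctl 2, ATO 1 and ATO 2. Gbe1 thus exceeded Gys1 in ATO 2 alone among these 4 sarcomas. The summed FPKM of Gys1 and Gys2 in ATO 2 was 43.4, which is above Gbe1. Ppp1r3c relative to Gys1 gave 0.0719 and 0.0847 in the Ctl sarcomas, 3.18 in ATO 1 and 1.65 in ATO 2.

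Of the phosphorylases, Pygm (chromosome 19, 6384399 to 6398459, plus strand), the muscle enzyme that is lacking in McArdle disease, had FPKM values of 628.89 in ATO 1 and 36.07 in ATO 2, and of 1.01 in Ctl 1 and 6.8 in Ctl 2. Both ATO sarcomas were above both Ctl sarcomas, and ATO 1 was in turn 17.4 times ATO 2. With 36699 counts Pygm held place 43 by FPKM among all genes in ATO 1, against place 1242 in ATO 2. The fitted log2 fold change was 6.56 (SE 1.88), with 3.63 without ATO 1 and 7.48 without ATO 2. Pygl (chromosome 12, 70190811 to 70231488, minus strand), the liver enzyme, had an FPKM of 7.4, 31.66, 7.8 and 78.23 in Ctl 1, Ctl 2, ATO 1 and ATO 2. ATO 1 was at the level of Ctl 1 and ATO 2 was the highest of the 4, and the groups overlapped. The fitted log2 fold change of 1.54 (SE 1.35) was 2.42 without ATO 1 and -1.18 without ATO 2.

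Within the phosphorylase family the leading gene differed between sarcomas. Pygb, the brain enzyme, made up 74.1% of the summed FPKM of the family in Ctl 1, and Pygl 60.4% in Ctl 2. Pygm made up 97.6% in ATO 1, where the sum was 645, and Pygl 60.7% in ATO 2, where the sum was 129. Pygl was thus the main phosphorylase transcript in 1 sarcoma of each group. Pygm held 3.11% in Ctl 1, 13% in Ctl 2 and 28% in ATO 2. The FPKM ratio of Pygm to Pygl was 0.136, 0.215, 80.6 and 0.461 in Ctl 1, Ctl 2, ATO 1 and ATO 2. Among the synthases, Gys2, the liver enzyme, had 0, 1, 0 and 618 counts in Ctl 1, Ctl 2, ATO 1 and ATO 2. It was 35.1% of the synthase FPKM in ATO 2 and at most 0.094% elsewhere.

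**Figure D2:**
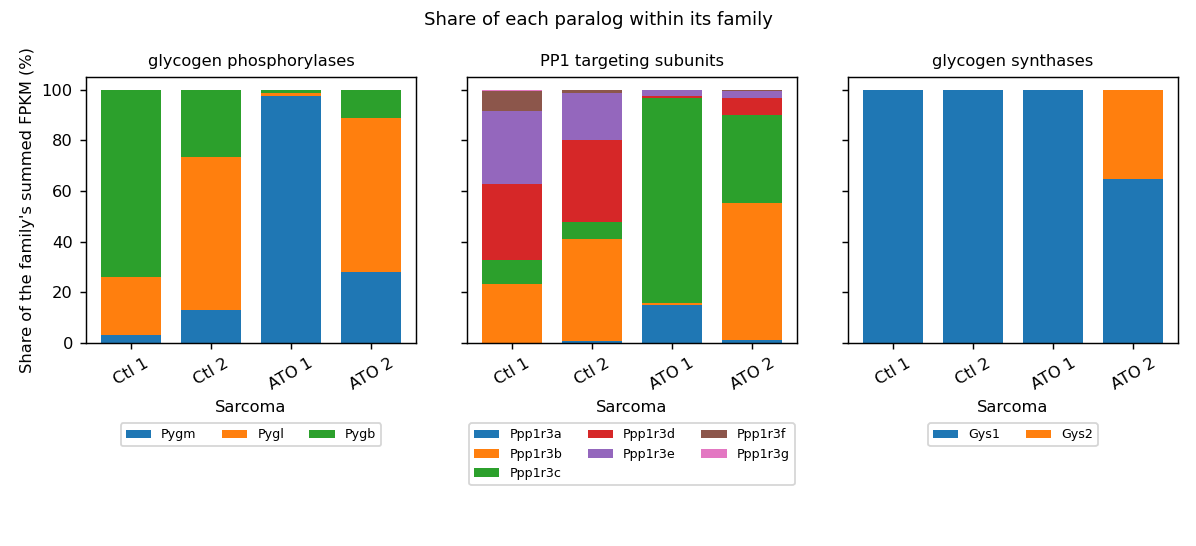
Share of each gene in the summed FPKM of its family (vertical axis, percent, from 0 to 100) in each sarcoma, for the phosphorylases, the phosphatase targeting subunits and the synthases. Pygm fills 97.6% of the phosphorylase bar and Ppp1r3c 80.9% of the targeting subunit bar in ATO 1, while Pygl (60.7%), Ppp1r3b (54.3%) and Gys2 (35.1%) are large in ATO 2.

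Over the 9 genes, 6 had both ATO sarcomas above both Ctl sarcomas, 3 overlapped (Ppp1r3b, Ppp1r3d and Pygl) and 0 had both below. Among all 17188 genes tested, 19.7% had both ATO sarcomas above and 20.2% had both below by CPM, which is the count scaled to the library size after TMM normalization and not to gene length. By FPKM, 12.8% of all genes had both ATO sarcomas above and 29.6% had both below, while the 9 genes gave the same 6. Without ATO 1, all 9 genes had the remaining ATO sarcoma above both Ctl sarcomas by CPM (34.6% of all genes), Ppp1r3d not by FPKM. The number was 6 without ATO 2 (34.5% of all genes) and without Ctl 1 (33.2%), and 7 without Ctl 2 (36.8%). The median fitted log2 fold change of the 9 genes was 2.95, against -0.02 for all genes, and in limma on log2 FPKM with a pseudocount of 1 it was 1.54 against -0.23. With Benjamini-Hochberg adjustment edgeR's quasi-likelihood test called 0 of all 17188 genes (0.00%), the smallest adjusted p of edgeR being 0.57. At an unadjusted p under 0.05, 8.51% of all genes passed. DESeq2 with an adjusted p under 0.05 called 3.25% of its genes as higher and 0.869% as lower. The edgeR test without a filter on low counts called 1.47% of its genes as higher. The counts of the 9 genes are a description, since these genes were selected on this contrast, and calls of single genes among them are not given.

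At the median of these genes, the difference between the ATO sarcomas was larger than that between the group means. The first compares single sarcomas and the second compares means of 2, which vary less, so the sizes are not directly comparable. On log2(CPM + 1), the median absolute difference over the 9 genes was 2.51 between ATO 1 and ATO 2, 1.01 between Ctl 1 and Ctl 2, and 1.84 between the group means. The medians over all genes tested were 0.54, 0.51 and 0.45 in the same order. Of the 9 genes, 8 were higher in Ctl 2 than in Ctl 1, Gbe1 being the exception, and 5 were higher in ATO 1 than in ATO 2. Ppp1r3c had a mean of 3.14 ± 1.83 CPM in Ctl and 244 ± 125 CPM in ATO (SD, n = 2 each). Pygm had 11.4 ± 11.9 and 1079 ± 1325 CPM (SD, n = 2 each), so that its SD in ATO exceeded its mean.

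The other genes of glycogen metabolism comprised 22 genes, of which 20 were tested, Gys2 and Ppp1r3g failing the filter on low counts. These genes too were chosen with earlier results of these data known. Their calls and p-values, here and in the next paragraphs, are therefore a description and no independent test. By CPM, both ATO sarcomas were above both Ctl sarcomas in 9 of the 20 genes (19.7% of all genes tested) and below in 2 (20.2%). By FPKM they were above in 8 (12.8%) and below in 2 (29.6%). The median fitted log2 fold change was 0.50, against -0.02 for all genes. edgeR's quasi-likelihood test called 0 of the 20 after Benjamini-Hochberg adjustment, and 6 had an unadjusted p under 0.05 (8.51% of all genes). DESeq2 called 3 as higher, Ugp2, Phkb and Phkg1 (3.25% of its genes). The edgeR test without a filter called Phkg1 and Gys2 (1.47% of its genes higher).

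Phosphorylase kinase, which activates phosphorylase, is built from alpha, beta and gamma subunits and calmodulin. Its muscle gamma subunit Phkg1 had FPKM values of 7.89 in ATO 1 and 1.5 in ATO 2, and of 0.11 in Ctl 1 and 0.24 in Ctl 2. Its log2 fold change was 4.90 (SE 1.01), with an adjusted p of 0.57 in edgeR and 5.26e-05 in DESeq2. Phkg1 shares 630 exonic bases with Sumf2 on the opposite strand, whose counts of 544, 419, 205 and 202 ran the other way. The beta subunit Phkb had FPKM values of 3.56, 3.41, 21.23 and 7.42. Its log2 fold change was 2.25 (SE 0.55), with an adjusted p of 0.57 in edgeR and 0.0412 in DESeq2. The alpha subunit Phka1 had FPKM values of 2.53, 3.5, 32.55 and 3.78, so that ATO 2 was close to Ctl 2. Its log2 fold change of 2.75 (SE 1.00) had an adjusted p of 0.577 in edgeR, and was 0.73 without ATO 1 and 3.57 without ATO 2. The alpha subunit Phka2 had FPKM values of 4.34, 4.5, 12.99 and 6.44. Its log2 fold change of 1.37 (SE 0.43) had an adjusted p of 0.57 in edgeR, and was 0.95 without ATO 1. ATO 1 was the highest sarcoma in each of these 4 genes. Phkg2, the gamma subunit of liver and other tissues, overlapped between the groups with a log2 fold change of -0.19 (SE 0.48). In ATO 1 Phkg1 held 54.8% of the FPKM of the gamma subunits, against 2.05% and 2.53% in the Ctl sarcomas.

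Ugp2, which makes the UDP-glucose that synthase and glycogenin use, had FPKM values of 117.84 in ATO 1 and 56.22 in ATO 2, and of 21.79 in Ctl 1 and 27.41 in Ctl 2. Its log2 fold change was 2.05 (SE 0.49), with an adjusted p of 0.57 in edgeR and 0.0343 in DESeq2. Epm2a, which encodes the glycogen phosphatase laforin, had FPKM values of 1.18, 2.27, 10.12 and 2.99 and a log2 fold change of 2.13 (SE 0.74), with an adjusted p of 0.57 in edgeR, and of 1.20 without ATO 1. Ugp2 and Epm2a thus shared the order of Gyg, with ATO 1 the highest sarcoma and ATO 2 next. Pgm2 and the phosphatase catalytic subunit Ppp1cc were lower in both ATO sarcomas, with log2 fold changes of -1.20 (SE 0.58) and -0.76 (SE 0.45), edgeR adjusted p of 0.63 and 0.681. The remaining catalytic subunits Ppp1ca and Ppp1cb, the synthase kinase Gsk3b, the lysosomal glucosidase Gaa and the phosphorylase gene Pygb overlapped between the groups, with log2 fold changes from -0.44 to 0.34. The sign of Ppp1ca, Gsk3b and Gaa turned in limma on log2 FPKM, and that of Ppp1ca also without a filter. Stbd1, which tethers glycogen to membranes, and the targeting subunits Ppp1r3e and Ppp1r3f overlapped too, with log2 fold changes of 1.46 (SE 0.91), 0.30 (SE 0.67) and -0.09 (SE 0.72). Without ATO 1 that of Stbd1 was -0.29. Pgm1 at 1.18 (SE 0.56), the synthase kinase Gsk3a at 0.66 (SE 0.35) and Nhlrc1, the partner of laforin, at 0.80 (SE 0.72) had both ATO sarcomas above both Ctl sarcomas by CPM, Nhlrc1 not by FPKM.

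**Figure D3:**
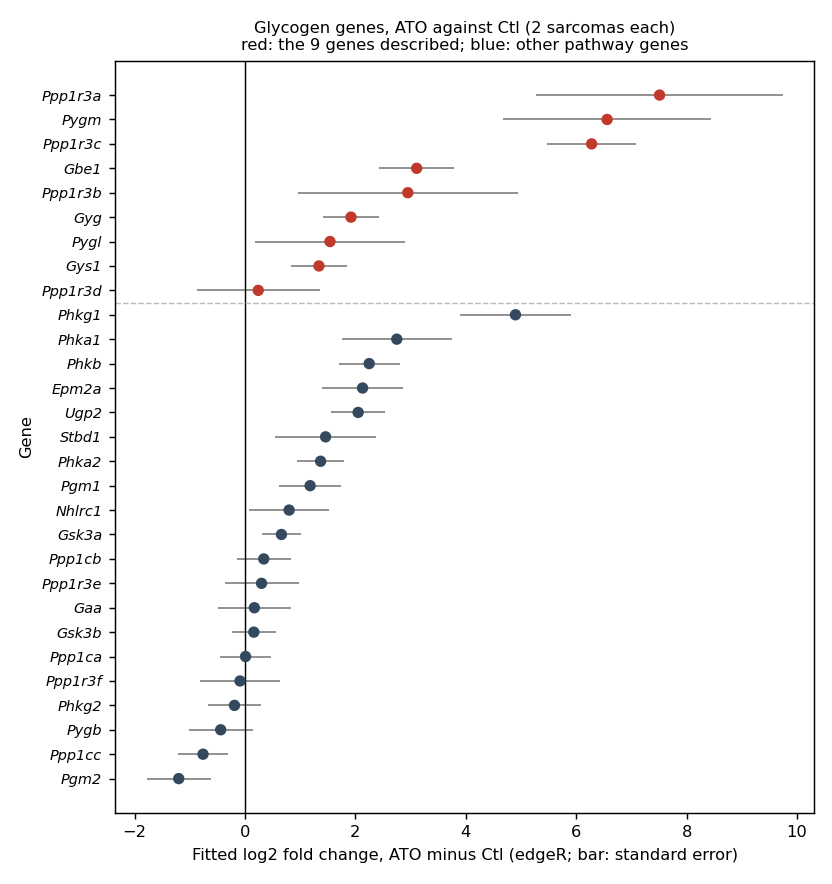
Fitted log2 fold change of ATO over Ctl (horizontal axis, edgeR, 2 sarcomas per group) of the 9 glycogen metabolism genes in red and of the 20 other pathway genes tested in blue, with bars of 1 standard error. Ppp1r3a (7.51), Pygm (6.56) and Ppp1r3c (6.28) are farthest to the right, and Phkg1 (4.90) leads the other genes.

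Since these genes have forms typical of muscle, liver or fat, markers of such tissues were read in the same sarcomas. All 12 of 12 skeletal muscle markers were higher in both ATO sarcomas than in both Ctl sarcomas, with summed FPKM of 18343 and 1324 in ATO 1 and ATO 2 against 10.8 and 188 in Ctl 1 and Ctl 2. Acta1 and Atp2a1 were the most abundant, and Tnnc2 was at 0 counts in Ctl 1. All 8 of 8 adipocyte markers were likewise higher in both ATO sarcomas, with sums of 373 and 1889 against 13.7 and 73.8, led by Fabp4 and Cfd. Among all genes tested, 19.7% were higher in both ATO sarcomas by CPM. Plin1, Lep and Retn were at 0 counts in Ctl 1 and Lep was also at 0 in Ctl 2. The brown adipocyte markers summed to 32.8 and 0.38 in Ctl, 1.68 in ATO 1 and 2036 in ATO 2, with Cidea at 0 counts in both Ctl sarcomas and the sum of Ctl 1 coming from Dio2. The sum of the muscle markers was thus highest in ATO 1, and the sums of the adipocyte and brown adipocyte markers in ATO 2, while Dio2 alone was highest in Ctl 1. Their part in the levels of the glycogen genes was not tested. Without mitochondrial genes, which were most abundant in ATO 2, the same count of 6 glycogen genes had both ATO sarcomas above both Ctl sarcomas.

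The defining markers of liver were at or near 0. Among the 5 hepatocyte markers Alb had 22, 0, 8 and 1 counts, Ttr was at 0 in all 4 sarcomas, and G6pc had at most 5 counts. Cyp2e1 had 0 and 4 counts in Ctl and 779 and 444 in ATO. The summed FPKM of the 5 markers was 0.68, 0.4, 20.2 and 13.5. Cyp2e1 carried the sums of ATO 1 and ATO 2, with an FPKM of 19.91 and 13.48, and not those of the Ctl sarcomas. The cardiac muscle markers summed to between 1.15 and 2.25 FPKM in each sarcoma, where Myl7 had at most 1 count. Of the 4 mesenchymal markers, Vim and Pdgfrb were lower in both ATO sarcomas, with log2 fold changes of -1.46 (SE 0.83) and -1.25 (SE 0.48), and Col1a1 and Col1a2 overlapped. Of the 4 nerve and glia markers, 3 were higher in both ATO sarcomas by CPM and S100b overlapped. Among all genes tested, 19.7% were higher in both ATO sarcomas and 20.2% lower in both by CPM. The part of these markers in the result was not tested. The sum of the osteoblast markers was high in ATO 1 alone (465 against 4.69 to 12.7). Among them Runx2 overlapped between the groups, with an FPKM of 10.19 in Ctl 1 and 13.12 in ATO 1. Summed erythroid markers were high in Ctl 2 and ATO 1 (19101 and 10520 against 288 and 1083), and endothelial markers in Ctl 2 (892 against 76.1 to 153). Leukocyte markers summed to between 240 and 1726 and nerve and glia markers to between 0.58 and 29.2.

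Hypoxia is known to raise Ppp1r3c and Gys1 in cultured cells, so 9 genes that hypoxia induces were read as well. Their summed FPKM was 429 in ATO 1 and 555 in ATO 2, and 285 in Ctl 1 and 700 in Ctl 2, and the groups overlapped. Bnip3 was higher in both ATO sarcomas (19.7% of all genes tested by CPM), Ndrg1 was lower in both (20.2%), and the other 7 overlapped. Ca9 was not analysed here.

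The order of the ATO sarcomas separated the 9 genes further. Ratios of ATO 1 to ATO 2 were taken only for genes with more than 3 counts in both. Among the lists compared here this left out Gfap (65 and 2 counts in ATO 1 and ATO 2), Ucp1 (1 and 37084), Bglap (655 and 1) and Sp7 (2497 and 0). The FPKM ratio of ATO 1 to ATO 2 was 18.5 for Ppp1r3a and 17.4 for Pygm, which lay within the range of the skeletal muscle markers (2.25 to 33.5, median 13.4 over 12 genes). It was 2.63 for Ppp1r3c, 2.36 for Gyg and 1.37 for Gys1. It was below 1 for Gbe1 (0.397), Ppp1r3d (0.186), Pygl (0.0997) and Ppp1r3b (0.0163), where the adipocyte markers ranged from 0.0491 to 0.457 over 8 genes. Ppp1r3b lay below that range, between the brown adipocyte markers Cidea at 0.00218 and Dio2 at 0.122. Ppp1r3c lay between the muscle markers Myh2 (2.25) and Mb (2.92), the other 10 muscle markers being at 9.12 or more. Other lists held the same ratios. The endothelial markers (0.394 to 0.634), the leukocyte markers (0.318 to 1.97) and the hypoxia genes (0.216 to 1.8) also ranged around Gbe1. The leukocyte and hypoxia lists ranged around Gys1 as well. The osteoblast markers ranged from 13 to 1003 over 3 genes, around Ppp1r3a and Pygm. The mesenchymal markers ranged from 0.48 to 7.66 over 4 genes, around Ppp1r3c, Gyg and Gys1. The nerve and glia markers ranged from 0.0885 to 1.27 over 3 genes, around Gbe1, Ppp1r3d and Pygl. Gfap, the nerve and glia marker left out, was higher in ATO 1 than in ATO 2. Between the Ctl sarcomas, Pygm in Ctl 2 was 6.73 times its level in Ctl 1. Sums also higher in Ctl 2 were those of the skeletal muscle, cardiac muscle, adipocyte, leukocyte, endothelial, nerve and glia, erythroid and hypoxia lists. The sums of the brown adipocyte, hepatocyte, osteoblast and mesenchymal lists were lower in Ctl 2. The part of these lists in the level of Pygm was not tested.

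**Figure D4:**
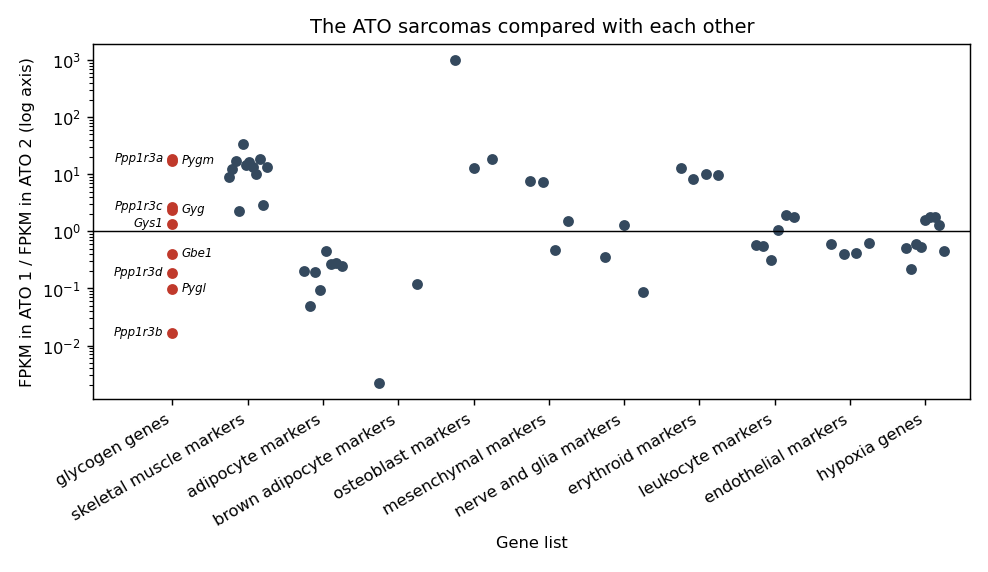
Ratio of FPKM in ATO 1 to FPKM in ATO 2 (log axis, the line marks equal levels), with 1 point per gene, for the 9 glycogen metabolism genes in red and for lists of marker genes. Only genes with more than 3 counts in both ATO sarcomas are shown, so that Gfap, Ucp1, Bglap and Sp7 are missing from their lists. Ppp1r3a (18.5) and Pygm (17.4) lie among the skeletal muscle markers (median 13.4) and the osteoblast markers (median 18.9). Pygl (0.0997) lies within the ranges of the adipocyte markers (0.0491 to 0.457) and of the nerve and glia markers (0.0885 to 1.27), and Ppp1r3b (0.0163) lies below both ranges.

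The genes with the most similar profiles were named by the smallest Euclidean distance between centred log2(CPM + 1) values over the 4 sarcomas, among 17187 genes. For Ppp1r3c these were Ckmt2 (distance 0.71), Gm42047 (0.73), Mylk4 (0.76), Ucp3 (0.77) and Plin4 (0.94). Ckmt2, a mitochondrial creatine kinase of striated muscle, had an FPKM of 0, 0.37, 39.19 and 21.26 in Ctl 1, Ctl 2, ATO 1 and ATO 2. Ucp3, an uncoupling protein of muscle and brown fat, had 0, 0.12, 37.34 and 21.3, and Plin4, a lipid droplet protein of fat and muscle, had 0.4, 0.56, 100.04 and 28.15. In each, ATO 1 was above ATO 2. Of the glycogen genes, Ppp1r3a (place 56, distance 2.11) and Pygm (place 63, 2.18) came nearest to Ppp1r3c, and Ppp1r3b was far from it (place 15274, 6.86).

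For Pygm the nearest were Trdn (0.11), Myot (0.34), Eef1a2 (0.37), Mylpf (0.43) and Cacna1s (0.51). Trdn and Cacna1s belong to the calcium release apparatus of skeletal muscle, and Myot and Mylpf to its contractile fibres. Mylpf had an FPKM of 1.35, 11.79, 1311.07 and 91.88 in Ctl 1, Ctl 2, ATO 1 and ATO 2, about the same steps as Pygm. Ppp1r3a was at place 33 (1.38) and Ppp1r3c at place 64. These distances rest on 4 sarcomas and describe likeness of level only.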

How the data were processed

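The authors extracted RNA from 4 sarcomas, checked the reads with FastQC 0.10.1, trimmed them with cutadapt 1.9.1, aligned them to GRCm38 with HISAT2 2.0.1 and used HTSeq for the counting. The deposited table holds raw counts, without normalization, and FPKM, which the authors scaled to exonic gene size and total count, and 100% of the FPKM values followed from the counts to within 0.011. The strand setting is not given in the sources used here. Groups came from the treatment in the labels. Positions were taken from GENCODE M21 by identifier, since 1472 of 52073 shared genes had its position in the table, and the exonic sizes of all 9 genes were those of M21.

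The main test was that of edgeR 4.0.16 under R 4.3.3 (filter by filterByExpr, TMM, quasi-likelihood F-test, Benjamini-Hochberg adjustment, threshold 0.05), checked on simulated data. The biological coefficient of variation was 62.5%. A count of 0 allows 3 counts, or 0.165 to 0.197 CPM, by counting error only. Alternatives were DESeq2 1.42.0, its size factors, no filter, a replicate block, limma 3.58.1 on log2 FPKM (mean FPKM of at least 1), no mitochondrial genes and each sarcoma left out. Profiles and figures used Python 3.11.15 with numpy 2.4.6, pandas 2.3.3 and matplotlib 3.10.9. The 9 genes, the 22 other glycogen genes, the 12 marker and hypoxia lists and the tests were chosen with earlier results of these data known. Named were the listed glycogen genes, the most abundant and absent markers, and the 5 nearest profiles of Ppp1r3c and Pygm. A further glycogen gene is not reported here. Other markers, Sumf2 and Ruvbl2 were named after their values were seen.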

Additional observations from a re-analysis of the deposited data

How the results depend on the processing

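With 2 sarcomas per group and a biological coefficient of variation of 62.5%, edgeR called 0 genes, while DESeq2 called 753 (3 of the other glycogen genes) and edgeR without a filter 541 (2 of them). The cause was not tested. The median log2 fold change of the 9 genes was 2.95 in edgeR, 1.58 and 1.54 in limma on log2 FPKM with pseudocounts of 0.1 and 1, where the median of all genes was -0.28 and -0.23, and 2.08 (without ATO 2) to 3.63 (without ATO 1) with a sarcoma left out. With a replicate block it was 1.86 with 0 genes called. The labels give sarcomas of both groups the numbers 1 and 2 without saying that these pair them, and deviations of same-numbered sarcomas had a correlation of -0.024. Of 99 values of the 9 genes under alternatives, 82 kept their size within the replicate spread, 10 moved by more and 7 changed sign. The spread differed between genes, so this count does not measure how stable the sizes were. Without Ctl 2, Ppp1r3b at 4.77 against 2.95 stayed within it, while Gys1 at 1.94 against 1.34 moved. Of 216 values of the other genes, 20 changed sign. The count of 6 genes with both ATO sarcomas above both Ctl sarcomas, recomputed with a sarcoma left out as an alternative chosen after seeing the data, ranged from 6 to 9. Sign changes, whose cause was not tested, were as follows. Ppp1r3d was -0.28 and -0.20 in limma with pseudocounts of 0.1 and 1 and -0.02 with the replicate block. Gaa was -0.01 in both limma fits, Ppp1ca was -0.24 in both and -0.01 without a filter, and Gsk3b was -0.14 and -0.12. With a sarcoma left out, the log2 fold change ranged from -2.29 to 4.77 for Ppp1r3b, -1.68 to 1.49 for Ppp1r3d, -1.18 to 2.92 for Pygl, -1.15 to 0.02 for Pygb, -0.37 to 1.01 for Gaa, -0.29 to 2.23 for Stbd1, -0.16 to 0.97 for Ppp1r3e, -0.47 to 0.44 for Ppp1r3f, -0.54 to 0.25 for Phkg2, -0.25 to 0.32 for Ppp1ca and -0.14 to 0.40 for Gsk3b.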
